A study of Homo sapiens with 7 samples.

Results

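THSD4, the fibrillins FBN1 and FBN2, the latent TGF-beta binding proteins LTBP1, LTBP2 and LTBP3, the microfibril-associated proteins MFAP2 and MFAP4, fibronectin (FN1) and elastin (ELN) were followed by name in a poly-A RNA sequencing experiment on human heart muscle cells grown in culture. They are 10 of the 60234 genes in the deposited table. THSD4 and FN1 were selected on their TPM values, which were lower with the MYH7B oligonucleotide than with a scrambled one in these same libraries, so their differences are given as a description with no test. The other 8 were taken as members of the same matrix system, with earlier results of these data known. The cells were cardiomyocytes differentiated from induced pluripotent stem cells of WTC-11, a single established line, and matured for 35 days. Every culture then received an ASO (antisense oligonucleotide, a synthetic strand complementary to its target RNA), taken up passively at 2 uM for 96 h. The oligonucleotide was scrambled in 3 libraries and directed at MYH7B in 4. No label says whether the libraries of a group came from separate differentiations, so p-values measure only the spread between these libraries, which may be technical. Levels are in TPM, a measure of transcripts relative to the whole library, which are scaled for gene length and can be compared between genes.

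Microfibrils are polymers of fibrillin outside the cell. THSD4, an ADAMTS-like glycoprotein, promotes their assembly, MFAP2 and MFAP4 decorate them, and the LTBPs tether latent TGF-beta to them. Tropoelastin, the product of ELN, is laid down on this scaffold and cross-linked by lysyl oxidases into elastic fibres. Fibronectin is drawn into fibrils by integrins at the cell surface and serves as a template for fibrillin and LTBP deposition. In the heart these proteins are made largely by fibroblasts and vascular smooth muscle.

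The values of MYH7B ASO replicate 1 do not follow the row order of the table. They were put back in order from an annotation, and this library is given beside the others but was left out of the means and the tests, which compare 3 libraries with 3. Between 15290 and 16207 genes reached 1 TPM in those 6 libraries, and mitochondrially encoded genes took 27.4% to 33.6% of TPM. The library left out had 14823 such genes and 17.2% mitochondrial TPM. MYH7B itself was 23.0, 36.5 and 25.1 TPM with the scrambled ASO and 9.30, 5.65 and 6.31 TPM in MYH7B ASO replicates 2 to 4. In replicate 1 it was 1.29 TPM, the lowest of the 7 libraries. Cardiomyocyte markers were abundant in both groups, with 12 genes summing to 14379 to 15537 TPM with the scrambled ASO and 11354 to 13466 TPM with the MYH7B ASO. The pluripotency gene POU5F1 was between 1.11 and 2.70 TPM in the 6 libraries.

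RefSeq promoter windows (GRCh38.p14) matched 8 of the 10 genes, with 14 annotated starts among them. The 250 bases before each start were searched on both strands for GGAATG, the element that TEAD factors bind, for TGANTCA, the AP-1 element, and for TGACGTCA, the cyclic AMP response element. The 3 elements were chosen with earlier results of these data known, and no binding was measured. The stretches that hold a TEAD or a cyclic AMP response element are shown 5′ to 3′ along the gene's strand, trimmed where an exon of GENCODE 29 overlaps the 250 bases, with the element in capitals.
THSD4 (chr15:71096644-71096893, plus strand): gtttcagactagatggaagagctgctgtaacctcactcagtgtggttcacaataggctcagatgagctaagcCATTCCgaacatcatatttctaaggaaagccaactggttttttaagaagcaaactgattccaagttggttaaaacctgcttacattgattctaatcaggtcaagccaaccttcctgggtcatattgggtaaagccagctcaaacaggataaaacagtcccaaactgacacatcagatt
FBN1 (chr15:48644971-48645220, minus strand): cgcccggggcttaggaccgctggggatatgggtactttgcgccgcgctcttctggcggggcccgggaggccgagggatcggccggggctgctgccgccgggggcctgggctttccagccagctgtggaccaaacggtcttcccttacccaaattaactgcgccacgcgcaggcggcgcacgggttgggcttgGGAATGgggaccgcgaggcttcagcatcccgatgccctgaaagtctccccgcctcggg
FN1 (chr2:215436173-215436252, minus strand): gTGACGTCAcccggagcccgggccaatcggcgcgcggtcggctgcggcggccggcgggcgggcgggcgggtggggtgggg
LTBP1 (chr2:32946703-32946952, plus strand): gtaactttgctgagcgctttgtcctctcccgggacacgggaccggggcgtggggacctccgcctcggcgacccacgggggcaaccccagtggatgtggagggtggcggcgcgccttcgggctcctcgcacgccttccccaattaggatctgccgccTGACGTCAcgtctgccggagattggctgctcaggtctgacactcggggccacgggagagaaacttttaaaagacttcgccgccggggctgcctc
The TEAD element lay 178 bases before a THSD4 start and 58 bases before the RefSeq FBN1 start. It was found in 2 of the 14 windows and in 11.9% of all 35116 windows of that length. The FBN1 stretch lies inside the gene as placed by GENCODE 29, from 48408306 to 48645849, and so is not upstream of that gene model. The cyclic AMP response element lay 183 bases before the FN1 start and 94 bases before a LTBP1 start, in 2 of the 14 windows and in 1.65% of all windows. The AP-1 element was found in 1 window, that of an MFAP2 start, and in 6.57% of all windows. These are matches of letters only, and gene-level TPM does not say which of several starts was used.

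THSD4 (ENSG00000187720.14) occupies positions 71096952 to 71783383 of chromosome 15, a span of 686 kb, in GENCODE 29 on GRCh38. With the scrambled ASO its level was 33.0, 39.3 and 40.3 TPM. MYH7B ASO replicates 2 to 4 had 5.33, 6.84 and 6.36 TPM. The libraries of each group lay close together and far from those of the other group, and replicate 1, at 8.59 TPM, sat with the other MYH7B ASO libraries. The mean was 37.6 ± 3.96 TPM (SD, n = 3) against 6.18 ± 0.77 TPM (SD, n = 3), a 6.08-fold lower level and the largest difference among the 10 genes. THSD4 was picked for its fall, so this place is a description. On the log2(TPM + 1) scale the difference was -2.43 with a standard error of 0.17. The authors' deposited table gave a shrunken log2 fold change of -2.27. In bulk RNA, fewer cells of a type and less RNA per cell cannot be told apart, which holds for every gene below. The pseudogene HMGB1P6 lies inside THSD4 on the opposite strand with a mean of 66.5 TPM, and whether reads were counted by strand is not given in the sources used here.

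The fibrillins differed from each other in how far apart the groups were. FBN1 (ENSG00000166147.13, chromosome 15, 48408306 to 48645849), the main fibrillin of adult microfibrils, was 57.6, 55.4 and 105 TPM with the scrambled ASO. It was 25.3, 34.4 and 28.2 TPM with the MYH7B ASO, and 42.0 TPM in replicate 1. The groups did not overlap, although scrambled ASO replicate 3 stood well above the other scrambled libraries. The mean was 72.7 ± 28.0 TPM (SD, n = 3) against 29.3 ± 4.61 TPM (SD, n = 3), and the log2 difference was -1.23 with a standard error of 0.25. It did not pass over all genes (limma adjusted p = 0.0586), but the adjusted p lay between 0.0281 and 0.0477 with a minimum mean of 5 TPM, after either rescaling or without mitochondrially encoded genes. It stayed above 0.05 in the other 13 alternatives, among them no filter (limma adjusted p = 0.217), no trend (0.128), 7 libraries (0.105) and all 6 fits that left out a library (0.0673 to 0.206). FBN2 (ENSG00000138829.12, chromosome 5, 128257909 to 128659185), the fibrillin typical of developing tissue, was 58.2, 52.9 and 69.3 TPM with the scrambled ASO. With the MYH7B ASO it was 43.9, 45.7 and 39.6 TPM, and 55.1 TPM in replicate 1. The 6 libraries did not overlap, whereas replicate 1 lay within the range of the scrambled libraries. The log2 difference of FBN2 was -0.47 (standard error 0.15), which did not pass (limma adjusted p = 0.195). FBN2 overlaps SLC27A6 on the opposite strand, which had a mean of 2.43 TPM.

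The balance between the fibrillins was read as a ratio within each library. The log2 ratio of FBN2 to FBN1 with the scrambled ASO was 0.016, -0.068 and -0.60, so FBN1 was level with FBN2 or above it. MYH7B ASO replicates 2 to 4 had ratios of 0.79, 0.41 and 0.49, and replicate 1 had 0.39, so FBN2 was the more abundant fibrillin in each of those libraries. The mean was -0.22 ± 0.33 (SD, n = 3) against 0.57 ± 0.20 (SD, n = 3), a difference of 0.78. With 3 libraries against 3 an exact permutation test cannot go below p = 0.1, so none was used.

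**Figure D1:**
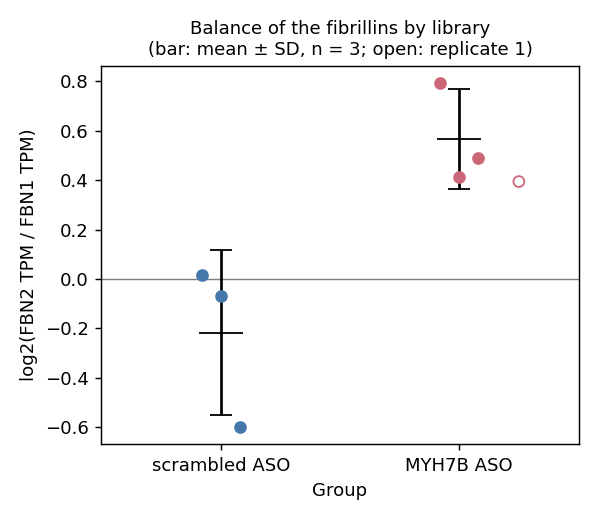
The log2 ratio of FBN2 to FBN1 TPM (vertical axis) in each library by group (horizontal axis), with bars for the mean and SD of 3 libraries and an open circle for MYH7B ASO replicate 1. The scrambled ASO libraries lie at or below 0.016 and the MYH7B ASO libraries at or above 0.39.

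The small microfibril-associated glycoproteins showed no difference beyond their spread. MFAP2 (ENSG00000117122.14, chromosome 1, 16974502 to 16980835), which binds fibrillin and tropoelastin, was 197, 144 and 267 TPM with the scrambled ASO and 183, 235 and 167 TPM with the MYH7B ASO. The groups lay across each other, the log2 difference was -0.02 (standard error 0.23, limma adjusted p = 0.977), and its sign changed under other scalings. MFAP4 (ENSG00000166482.11, chromosome 17, 19383442 to 19387240), a fibrinogen-domain protein of elastic fibres, was 60.0, 56.2 and 105 TPM with the scrambled ASO and 69.5, 63.6 and 44.4 TPM with the MYH7B ASO. Its log2 difference was -0.28 (standard error 0.27, limma adjusted p = 0.661). Leaving out scrambled ASO replicate 3 gave 0.0018. The end of MFAP4 overlaps MAPK7, at a mean of 12.6 TPM on the opposite strand. In replicate 1 both genes lay within the scrambled range, at 239 TPM for MFAP2 and 86.0 TPM for MFAP4.

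None of the LTBPs passed the test over all genes. LTBP1 (ENSG00000049323.16, chromosome 2, 32946972 to 33399509), which binds latent TGF-beta and anchors it to fibronectin and fibrillin, was 55.3, 69.8 and 73.8 TPM with the scrambled ASO. It was 48.2, 34.5 and 39.0 TPM with the MYH7B ASO and 42.0 TPM in replicate 1, below every scrambled library. The log2 difference was -0.70 (standard error 0.18, limma adjusted p = 0.108). LTBP2 (ENSG00000119681.12, chromosome 14, 74498170 to 74612378), which does not bind latent TGF-beta and takes part in elastic fibre assembly, was the least abundant of the 10 genes. Its levels were 4.95, 3.97 and 5.60 TPM against 2.48, 2.31 and 1.79 TPM, with 3.34 TPM in replicate 1. Here too the groups did not overlap, with a log2 difference of -0.87 (standard error 0.24, limma adjusted p = 0.130). LTBP3 (ENSG00000168056.16, chromosome 11, 65538805 to 65558930), another carrier of latent TGF-beta, was 64.5, 65.0 and 102 TPM with the scrambled ASO and 77.1, 92.6 and 69.0 TPM with the MYH7B ASO. These values were interleaved, with a log2 difference of 0.064 (standard error 0.21, limma adjusted p = 0.918).

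ELN was the member not picked for its fall that passed the test over all genes. Elastin (ENSG00000049540.17, chromosome 7, 74027789 to 74069907) gives elastic fibres their recoil. Scrambled ASO libraries had 14.6, 23.3 and 26.6 TPM of ELN, and MYH7B ASO replicates 2 to 4 had 5.31, 6.28 and 6.75 TPM. Replicate 1 had 4.80 TPM, the lowest of the 7 libraries. ELN fell: its mean was 21.5 ± 6.19 TPM (SD, n = 3) against 6.11 ± 0.73 TPM (SD, n = 3), a 3.52-fold lower level, and the log2 difference was -1.63 (standard error 0.23, limma adjusted p = 0.0160). The call held without scrambled ASO replicate 1 (limma adjusted p = 0.0153) and with replicate 1 of the MYH7B ASO added (0.0132). Leaving out any of the other 5 libraries (scrambled ASO replicates 2 and 3, MYH7B ASO replicates 2, 3 and 4) lost it, with limma adjusted p from 0.0519 to 0.0682.

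Fibronectin (FN1, ENSG00000115414.20, chromosome 2, 215360440 to 215436172) was the most abundant of the 10 genes with the scrambled ASO. Its level was 600.5, 481 and 1020.0 TPM there and 125, 154 and 121 TPM in MYH7B ASO replicates 2 to 4. The scrambled libraries were widely spread, yet the lowest of them exceeded every MYH7B ASO library, including replicate 1 at 304 TPM. The mean was 700.4 ± 283 TPM (SD, n = 3) against 133 ± 18.3 TPM (SD, n = 3), a 5.25-fold lower level. The log2 difference was -2.32 with a standard error of 0.26, and -2.01 without scrambled ASO replicate 3. The authors' deposited table gave FN1 a shrunken log2 fold change of -1.96.

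**Figure D2:**
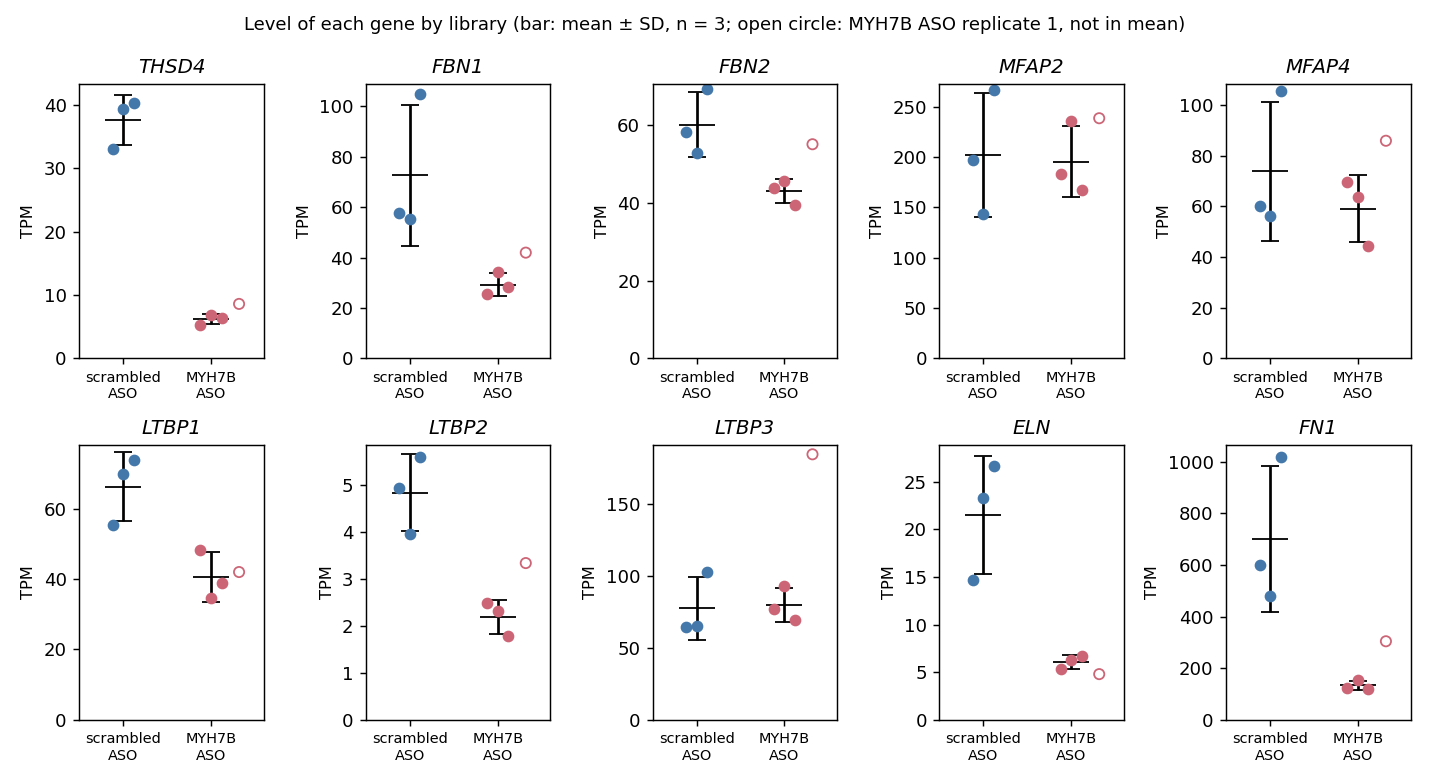
TPM of each of the 10 genes (vertical axes, each from 0) in the scrambled ASO and MYH7B ASO libraries (horizontal axis), with a point per library, a bar for the mean and SD of 3 libraries, and an open circle for MYH7B ASO replicate 1. THSD4, ELN and FN1 show the widest gaps, while MFAP2, MFAP4 and LTBP3 overlap between the groups. THSD4 and FN1 were picked for their falls.

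All 10 genes passed the filter on low values, a mean of 1 TPM or more, as did 15988 genes in all. Of the 8 genes not picked for their falls, 1 was called lower (limma adjusted p under 0.05), against 1.48% of all genes tested, and 0 were called higher, against 0.181%. At an unadjusted p under 0.05 there were 5 lower, against 10.6% of all genes, and 0 higher, against 4.67%. Both groups of 3 were fully apart, with the MYH7B ASO lower, for 5 of the 8, against 14.1% of all genes, and with it higher for 0, against 7.11%. The median log2 difference over the 8 was -0.58, and over all genes tested it was -0.044. The 8 were chosen with earlier results of these data known, so they are not a blind choice of genes. The authors' deposited table, for which the libraries entered are not given in the sources used here, called 5 of the 8 lower, against 5.69% of its genes, and 0 higher, against 3.02%. In the authors' deposited table these were ELN (-1.39, adjusted p-value 4.1e-10), FBN1 (-1.03, adjusted p-value 1.4e-06), LTBP2 (-0.93, adjusted p-value 8.6e-06), LTBP1 (-0.57, adjusted p-value 0.00375) and FBN2 (-0.38, adjusted p-value 0.0287). Its values for MFAP4, MFAP2 and LTBP3 were -0.21, 0.021 and 0.11, with adjusted p-values of 0.585, 0.966 and 0.779 in the authors' deposited table.

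**Figure D3:**
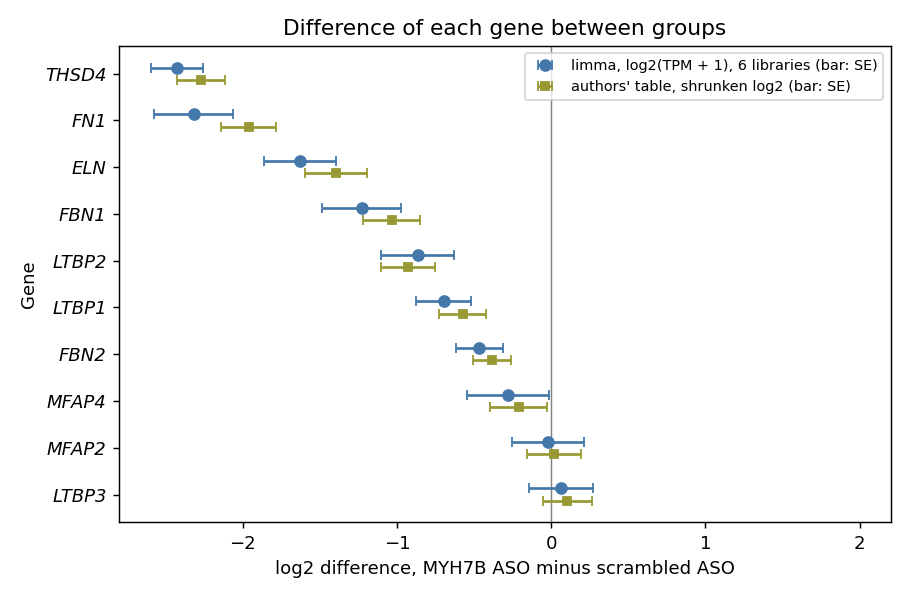
The log2 difference of each gene, MYH7B ASO minus scrambled ASO (horizontal axis), ordered by size (vertical axis), from limma on 6 libraries and from the authors' deposited table, with bars for standard errors. The values run from -2.43 for THSD4 to 0.064 for LTBP3 in limma, and THSD4 and FN1 were picked for their place here.

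The order of levels was read in each group from the means of 3 libraries. With the scrambled ASO, FN1 stood above MFAP2, and MFAP2 above all others. LTBP3, MFAP4, FBN1, LTBP1 and FBN2 followed with neighbouring ranges that overlapped, from a mean of 77.3 TPM down to 60.1 TPM, then THSD4, ELN and LTBP2. With the MYH7B ASO, MFAP2 at 195 ± 35.6 TPM (SD, n = 3) stood above FN1, FBN1 stood below LTBP1 and FBN2, and THSD4 and ELN had overlapping ranges near 6.18 and 6.11 TPM. In MYH7B ASO replicate 1, FN1 at 304 TPM was above MFAP2 at 239 TPM, and FBN1 and LTBP1 were level at 42.0 TPM. FN1 was picked for its fall, so its place in this order is a description. Scrambled ASO replicate 3 had the highest level of the 3 scrambled libraries for all 10 genes, as it did for 45.4% of all genes tested. That library also had the lowest mitochondrial share, at 27.4% of TPM, and with mitochondrially encoded genes removed it was highest for 8 of the 10.

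The genes differ widely in length along the chromosome. THSD4, LTBP1, FBN2, FBN1 and LTBP2 span 686, 453, 401, 238 and 114 kb, and FN1, ELN, LTBP3, MFAP2 and MFAP4 span 75.7, 42.1, 20.1, 6.33 and 3.80 kb. The 5 that span at least 100 kb all had lower levels with the MYH7B ASO and groups of 3 that did not overlap, against 33.9% of all tested genes of that span. They include THSD4, which was picked for its fall, and FBN2, whose replicate 1 lay within the scrambled range. Among the shorter 5, FN1 and ELN also stood apart, against 9.89% of all tested genes under 100 kb, while LTBP3, MFAP2 and MFAP4, the shortest, did not. FN1, like THSD4, was picked for its fall, so its separation is no result of this count. Across all genes tested with a known span, 5.26% of those of at least 100 kb were called lower, against 0.667% of shorter genes, and the median log2 difference was -0.31 and 0.0021. The split at 100 kb was chosen after the values were seen, and its part in the differences of these genes was not tested.

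Other genes of the same matrix system were read from lists by role, with 66 genes of which 63 passed the filter. The lists, too, were chosen with earlier results of these data known. Of these, 3 were called lower, against the same 1.48% of all genes, and 0 higher. At an unadjusted p under 0.05 there were 20 lower, against 10.6% of all genes, and 3 higher, against 4.67%. The median log2 difference of the 63 genes was -0.32. Biglycan (BGN), a small proteoglycan of collagen and elastic fibres, was 25.4, 26.4 and 54.6 TPM with the scrambled ASO and fell to 9.63, 12.1 and 8.93 TPM, a log2 difference of -1.62 (standard error 0.29, limma adjusted p = 0.0351). Integrin alpha V (ITGAV), a subunit of fibronectin receptors that also releases TGF-beta from its latent complex, was 48.4, 48.0 and 56.9 TPM and fell to 30.1, 20.8 and 19.7 TPM, a log2 difference of -1.11 (standard error 0.19, limma adjusted p = 0.0298). Collagen COL1A2, listed as a TGF-beta response gene, was 603, 613 and 1079 TPM and fell to 272, 348 and 238 TPM, a log2 difference of -1.38 (standard error 0.24, limma adjusted p = 0.0343). For each of these 3 genes the groups of 3 were fully apart, as for 14.1% of all genes in that direction. Each call held in 1 of 6 fits that left out a library, namely the fit lacking scrambled ASO replicate 3 for BGN (limma adjusted p = 0.0391) and COL1A2 (0.0458), and the fit lacking MYH7B ASO replicate 2 for ITGAV (0.0316). COL1A2 was 629 TPM in MYH7B ASO replicate 1, within the scrambled range, and was not called with that library added (limma adjusted p = 0.207). In the other 5 fits the limma adjusted p was 0.0605 to 0.159 for BGN, 0.0552 to 0.157 for COL1A2 and 0.0726 to 0.132 for ITGAV.

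By role, the list medians ran from -0.95 for TGF-beta response genes to -0.14 for matrix proteases and their inhibitors. Over all genes tested, 1.48% were called lower and 54.8% had negative differences. Of the 10 TGF-beta response genes, 1 was called lower and 8 had negative differences. SMAD7 and SKIL were not lower. SMAD7 had 37.5 ± 2.00 TPM against 44.8 ± 3.83 TPM (SD, n = 3), with groups apart, as for 7.11% of all genes in that direction. It was not called (limma adjusted p = 0.445), and SKIL overlapped between the groups. Among fibronectin receptors and partners, 12 of 13 genes were tested, all 12 had negative differences and 1 was called. Of the 14 elastic fibre assembly genes 1 was called, and 11 had negative differences. There LOX, which cross-links tropoelastin, had 40.8 ± 15.4 TPM against 16.1 ± 4.01 TPM (SD, n = 3) and missed the threshold (limma adjusted p = 0.0708). Its relatives LOXL1, LOXL2 and LOXL3 overlapped between the groups. LOXL4 had a higher mean with the MYH7B ASO, 6.87 ± 1.65 TPM against 15.1 ± 9.80 TPM (SD, n = 3), with overlapping groups (limma adjusted p = 0.314). No gene passed among the 9 ADAMTS-like and microfibril-binding ADAMTS genes, whose median was -0.32. The family member ADAMTSL3 had 6.46 ± 0.55 TPM against 3.19 ± 0.55 TPM (SD, n = 3, limma adjusted p = 0.0958). None passed among the 6 other fibrillin, LTBP and microfibril genes, at a median of -0.30, among the 6 tested TGF-beta ligand and latency genes, at a median of -0.23, or among the 6 tested proteases and inhibitors. Of the ligands, TGFB2 was 44.9 ± 8.99 TPM with the scrambled ASO and 59.4 ± 1.13 TPM with the MYH7B ASO (SD, n = 3), which did not pass (limma adjusted p = 0.287). In MYH7B ASO replicate 1 it was 33.9 TPM, below every scrambled library. The authors' deposited table called 14 of 63 list genes lower, against 5.69% of its genes, and 2 higher, against 3.02%. In the authors' deposited table the 2 higher genes were EMILIN3 (0.91, adjusted p-value 0.00203) and LOXL4 (0.81, adjusted p-value 0.00993). EMILIN3 was low, at a mean of 1.04 TPM against 2.41 TPM, and did not pass here (limma adjusted p = 0.281). The 14 lower genes in the authors' deposited table include LOX (-1.03, adjusted p-value 1.3e-05) and ADAMTSL3 (-0.77, adjusted p-value 0.00276). SMAD7, SKIL, LOX and its relatives, ADAMTSL3, TGFB2 and EMILIN3 were named after their values were seen.

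**Figure D4:**
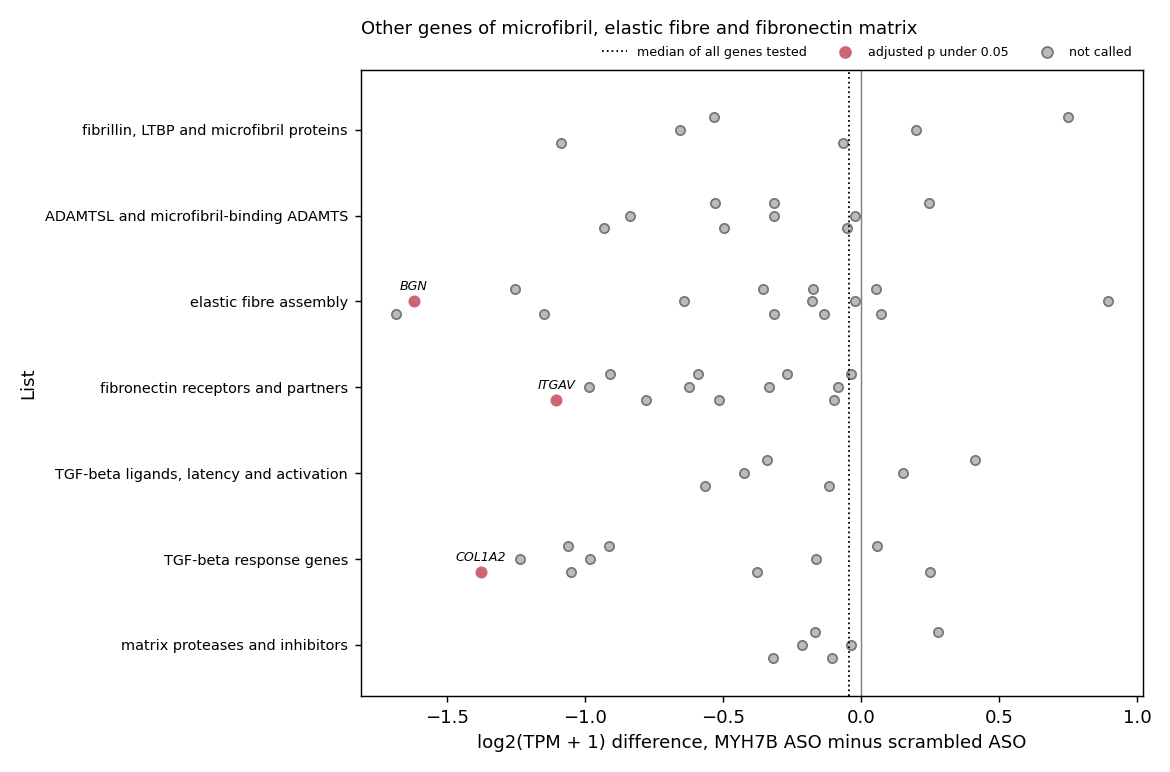
The log2(TPM + 1) difference, MYH7B ASO minus scrambled ASO (horizontal axis), of the 63 tested list genes by role (vertical axis), a point per gene, with the 3 called genes coloured and named and the median of all genes tested dotted. Most points lie left of the dotted line at -0.044, most of all for TGF-beta response genes and fibronectin receptors and partners.

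Fibroblast, smooth muscle and epicardial markers were present. Summed levels of the fibroblast and smooth muscle lists were lower in MYH7B ASO replicates 2 to 4. Of the single markers, 2 of 11 and 1 of 5 passed the test. The sums of the cardiomyocyte list and of the endothelial list (17.5 to 21.8 TPM against 11.5 to 17.2 TPM) were lower there too, without overlap. The 11 fibroblast markers summed to 2941 to 5290 TPM with the scrambled ASO and to 1386 to 2124 TPM with the MYH7B ASO, mostly from collagens, and 5 of them are also on the lists by role. The other 6 summed to 108 to 219 TPM and to 93.7 to 111 TPM, with ranges that overlapped. Of the 11 markers 2 were called lower, COL1A2 and lumican (LUM), and 0 higher, against 1.48% and 0.181% of all genes tested. At an unadjusted p under 0.05, 7 of the 11 were lower and 2 higher, against 10.6% and 4.67% of all genes. Groups were fully apart for 7 with the MYH7B ASO lower and for 2 with it higher, against 14.1% and 7.11% of all genes. LUM, a collagen-binding proteoglycan, was 20.2, 19.9 and 68.8 TPM with the scrambled ASO and fell to 5.49, 7.10 and 4.80 TPM (log2 difference -2.22, standard error 0.43, limma adjusted p = 0.0489). It was not called with replicate 1 added, at 43.8 TPM (limma adjusted p = 0.391), and of the 6 fits that left out a library it was called in the one lacking scrambled ASO replicate 3 (0.0217) and not in the other 5 (limma adjusted p from 0.0628 to 0.191). Fibroblast markers that are not matrix proteins differed in direction. The receptors PDGFRB and DDR2 had lower values with the MYH7B ASO, at 20.9 ± 1.70 TPM against 12.4 ± 2.16 TPM and at 11.6 ± 2.51 TPM against 5.85 ± 1.40 TPM (SD, n = 3). Both pairs of groups were fully apart, as for 14.1% of all genes in that direction, and neither gene passed (limma adjusted p = 0.0958 and 0.122). The surface glycoprotein THY1 overlapped between the groups. The receptor PDGFRA and the transcription factor TCF21 had higher values with the MYH7B ASO. PDGFRA was 23.7 ± 4.01 TPM against 36.3 ± 4.27 TPM and TCF21 was 8.40 ± 1.62 TPM against 14.4 ± 3.42 TPM (SD, n = 3). The groups did not overlap for either, as for 7.11% of all genes in that direction, and neither passed (limma adjusted p = 0.152 and 0.168).

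Among 5 smooth muscle markers, 1 was called lower and 0 higher, against 1.48% and 0.181% of all genes tested. At an unadjusted p under 0.05, 3 of the 5 were lower and 0 higher, against 10.6% and 4.67% of all genes. Groups were fully apart for 3 with the MYH7B ASO lower and for 0 with it higher, against 14.1% and 7.11% of all genes. MYH11, the smooth muscle myosin heavy chain, was 58.6, 74.2 and 77.6 TPM with the scrambled ASO and fell to 7.64, 15.6 and 15.4 TPM (log2 difference -2.41, standard error 0.27, limma adjusted p = 0.00599). The call held whichever library was left out and was lost with no filter on low values (limma adjusted p = 0.0556) and under both replicate blocks (0.331 and 0.720). The smooth muscle actin ACTA2 was 551 ± 81.6 TPM against 299 ± 80.6 TPM and TAGLN was 273 ± 113 TPM against 110 ± 16.4 TPM (SD, n = 3). Groups were fully apart for both, as for 14.1% of all genes in that direction, and neither was called (limma adjusted p = 0.0910 and 0.0649). MYOCD had a log2 difference of -0.39 with overlapping groups. CNN1 was 172, 168 and 205 TPM against 224, 228 and 192 TPM and did not pass (limma adjusted p = 0.454). The 5 markers summed to 968 to 1354 TPM and to 569.6 to 748 TPM. Of 12 cardiomyocyte markers 1 was called lower, against 1.48% of all genes tested, the cardiac actin ACTC1 (log2 difference -0.66, standard error 0.10, limma adjusted p = 0.0209). It was not called when any 1 library was left out (limma adjusted p from 0.0547 to 0.103). At an unadjusted p under 0.05, 7 of the 12 were lower, against 10.6% of all genes, and 0 higher, against 4.67%. Groups were fully apart for 6 with the MYH7B ASO lower and for 1 with it higher, against 14.1% and 7.11% of all genes. Endothelial PECAM1, VWF and CDH5 were at or below 1.12 TPM in the 6 libraries. Of the other endothelial markers, KDR overlapped between the groups. TEK was 11.4, 8.08 and 12.2 TPM against 3.23, 6.86 and 3.73 TPM. Its groups were fully apart, as for 14.1% of all genes in that direction, and it was not called (limma adjusted p = 0.111). The 3 epicardial markers summed to 112 to 177 TPM and to 118 to 166 TPM, and none was called. In MYH7B ASO replicate 1 the fibroblast markers summed to 4192 TPM and the smooth muscle markers to 1093 TPM, both within the scrambled range. Of the smooth muscle markers there, MYH11 (13.4 TPM), ACTA2 (436 TPM) and MYOCD (17.9 TPM) were below every scrambled library. TAGLN (378 TPM) was within the scrambled range and CNN1 (248 TPM) above it. THSD4, FN1 and ELN were also below every scrambled library in replicate 1. The cardiomyocyte markers of replicate 1 summed to 8879 TPM, the lowest of the 7 libraries. Marker genes with values here were named after those values were seen. Whether a different share of fibroblasts or smooth muscle cells contributed to the lower matrix genes was not tested.

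**Figure D5:**
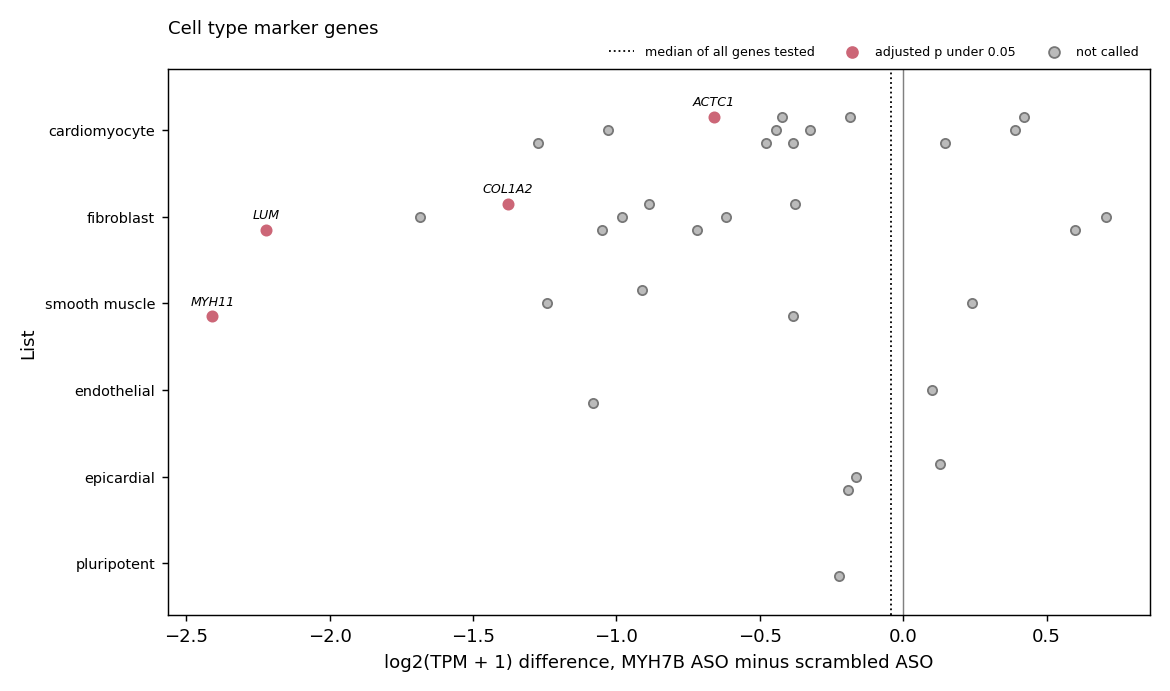
The log2(TPM + 1) difference, MYH7B ASO minus scrambled ASO (horizontal axis), of tested marker genes by cell type (vertical axis), with called genes coloured and named. Fibroblast markers run from -2.22 for LUM to 0.71 for TCF21, and smooth muscle markers from -2.41 for MYH11 to 0.24 for CNN1.

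Genes with the most similar pattern over the 6 libraries were found by the root mean square difference of log2(TPM + 1) profiles, each centred on its own mean, among the 10386 genes whose mean reached 5 TPM. For THSD4 the closest 5 were TRAPPC9 (0.085), MSRB3 (0.15), COL6A3 (0.16), SERGEF (0.18) and SEMA5A (0.19). TRAPPC9 had 16.7 ± 1.97 TPM with the scrambled ASO and 2.15 ± 0.23 TPM with the MYH7B ASO (SD, n = 3). The collagen chain COL6A3 had 57.1 ± 12.4 TPM and 9.39 ± 0.26 TPM. For FN1 the closest were COL6A3 (0.22), NIBAN1 (0.25), FAM114A1 (0.28), MEIS3 (0.29) and LUM (0.29), so 1 gene, COL6A3, was on both lists. No other member of the 10 was on either list. These likenesses are over 6 libraries and reflect mainly the difference between the groups.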

How the data were processed

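Poly-A RNA from 7 libraries was sequenced, 3 with a scrambled ASO and 4 with an ASO against MYH7B. The authors deposited TPM for 60234 genes, and each column sums to 1000000, so the sequencing depth is unknown and no counting interval is given. Their comparison table holds a mean normalized count signal, a log2 fold change with standard error (shrunken, per the file name), a test score, and a p-value and adjusted p-value, per the file headers. DESeq2 and GRCh38.p13 are named in the submitters' processing notes. The aligner, quantifier and annotation release are not given in the sources used here. Gene positions are from GENCODE 29 on GRCh38 and may differ from the authors' gene models.

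The column of MYH7B ASO replicate 1 holds 58721 values, as many as GENCODE 29 has genes on the chromosomes. Assigned to those sorted identifiers, its median correlation with the other libraries across genes was 0.955, against 0.408 as deposited.

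Genes whose mean reached 1 TPM were tested on log2(TPM + 1) with limma 3.58.1 (lmFit, eBayes with trend) in R 4.3.3, with Benjamini-Hochberg adjustment over all genes. Genes with an adjusted p under 0.05 are called. Fold changes of low genes are understated on this scale. The script was tested on simulated data. The members and gene lists were chosen with earlier results of these data known. Named genes are the 10 members, called list genes, the 5 closest profiles to THSD4 and FN1, and MYH7B, with a few others named after their values were seen. Alternatives were other pseudocounts (0.1 and 5), filters, rescalings, no trend, 2 replicate blocks, the added library, and leaving out each library.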

Additional observations from a re-analysis of the deposited data

Results flagged for a closer look

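LTBP3 in MYH7B ASO replicate 1, the library left out of the means and tests, was 184 TPM, above the highest scrambled ASO library at 102 TPM and the other MYH7B ASO libraries at 69.0 to 92.6 TPM. It drew attention as a level above the controls in a library outside the main comparison. Of the 10 genes, LTBP3 alone was above every scrambled library there. The share of all genes above was not counted, and the trait is not particular to LTBP3. Among the genes of the lists by role, LTBP4 (111 TPM) and BMP1 (72.7 TPM) were also above every scrambled library in replicate 1. Others, such as ITGAV (18.4 TPM) and BGN (14.3 TPM), were below every scrambled library there. Over the 4 MYH7B ASO libraries none of the 10 genes had a library far enough from the rest to pass Dixon's test at the 95% level, with FN1 (a gap of 0.817 of the range) and LTBP3 (0.796) the nearest. Replicate 1 also differed in its mitochondrial share, at 17.2% of TPM, and whether this moved LTBP3 was not tested.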

How the results depend on the processing

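The log2 differences of THSD4, FN1, ELN, FBN1, FBN2, LTBP1 and LTBP2 were negative in every alternative that gave a value, and LTBP2 had none with a minimum mean of 5 TPM. THSD4 and FN1 were picked for their falls in these same libraries, so their signs and ranges are a description only. The THSD4 difference ranged from -2.59 to -1.93, FN1 from -2.55 to -2.01 and ELN from -1.93 to -1.23. The FBN2 to FBN1 log2 ratio difference stayed between 0.59 and 0.94. Of the 8 members not picked for falls, 1 was called lower, with 2 (ELN and FBN1) at a minimum of 5 TPM, after median-ratio rescaling, after quantile normalization or with mitochondrially encoded genes removed, 0 with no filter, and 0 to 1 when a library was left out. The 3 list genes called lower became 5 at a minimum of 5 TPM, 0 with no filter or no trend, and 0 to 2 without a library. All called genes numbered 265, of which 236 were lower and 29 higher, against 202 and 55 after quantile normalization. The total was 170 with 7 libraries, 40 with no filter, 150 with no trend and 53 to 149 when a library was left out, lowest without MYH7B ASO replicate 4. MFAP2, at -0.02, changed sign with 7 libraries (0.055), median-ratio rescaling (0.027), mitochondrially encoded genes removed (0.0057) and without single libraries (-0.24 to 0.20). LTBP3, at 0.064, ranged from -0.049 to 0.28 without single libraries and was 0.37 with 7 libraries, and MFAP4 ranged from -0.45 to 0.0018 without single libraries. The cause was not tested. Fits without a library compare 3 with 2, which lowers the number of calls a test can make. The labels do not say that shared replicate numbers mark shared cultures, and same-numbered libraries had correlations of deviations of 0.076 and 0.11 by title and -0.073 and -0.039 by description. With the replicate block by title or by description number, limma called 0 genes, members or list genes. Genes at an unadjusted p under 0.05 then numbered 1718 and 1096. Under the block ELN was -1.93 by title (limma adjusted p = 0.331) and -1.79 by description (0.720), MFAP2 was 0.086 and 0.020, and LTBP3 was 0.049 and -0.031. The block leaves 2 pairs, so few degrees of freedom remain. TPM keeps no depth, so replicate spread is the only error here.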
